A study of Mus musculus with 31 samples.

Results

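Rasd2, Fam83a, Rap1gap2, Frmd8, Marveld1 and Kank2 are 6 of the 43629 genes in a table of RNA-seq counts from mouse liver, and they were selected on their measured levels, which differed between livers of pups injected with thyroxine (T4) and livers of pups injected with triiodothyronine (T3). The choice rested on the levels in the T4 and T3 livers, with no numerical threshold. For these 6 genes every value that sets T4 or T3 livers against another group is therefore a description with no test. Other genes were also tested in T4 minus T3. Tests of the 6 genes were kept to 3 comparisons in which neither the T4 nor the T3 livers are compared. These were T3+T4 against vehicle, vehicle against control, and T3+T4 against control. Their SEs and p-values still drew on the spread within groups of all 31 livers, the T4 and T3 livers included. All 6 genes passed the filter on low counts and were among the 17057 genes tested.

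All 31 pups lacked both the type 1 and the type 2 deiodinase (Dio1KO/Dio2KO), were on a C57Bl/6J background, received injections every other day from postnatal day 2, and were taken on postnatal day 14. In 4 groups the pups were also Pax8KO, and therefore without a thyroid: 7 received T3+T4, 8 received T4, 6 received T3 and 5 received vehicle. The control group held 5 vehicle-injected Pax8Het littermates, which have a thyroid but carry the same 2 deiodinase deletions. Doses are not given in the sources used here. Each liver is 1 library with 4383769 to 7158919 counts, so that 1 count was worth 0.134 to 0.230 CPM, the count divided by the TMM-adjusted library total. Depth differed between groups, with a mean of 6353684 counts in T3+T4 livers (5531724 to 7158919) and 5297107 in vehicle livers (4901954 to 5625282). No value in the table is below 1, so a value of 1 is read here as no read, and the levels of single genes are given with that 1 kept in. Nothing in the labels says that livers of one group came from different litters, so the p-values measure the spread between these pups only.

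Thyroid hormone acts mainly through nuclear receptors that bind DNA and, on binding hormone, exchange co-repressors for co-activators. T3 is the higher-affinity ligand, T4 is the main product of the thyroid, and the type 1 and type 2 deiodinases turn T4 into T3. In liver the hormone raises genes of lipogenesis, mitochondrial energy use and its own metabolism, Dio1 among them. The 6 genes belong to different families. Rasd2 encodes Rhes, a Ras-like small GTPase known best from the striatum, where its mRNA responds to thyroid hormone in rats. Rap1gap2 is a GTPase-activating protein that switches off the small GTPase Rap1. Frmd8, also called iTAP, binds the iRhom proteins and keeps the ADAM17 sheddase stable at the cell surface. Fam83a belongs to a family of scaffolds that anchor casein kinase 1. Marveld1 is a membrane protein with a MARVEL domain. Kank2 joins talin at focal adhesions to the cell cortex and, in human cells, holds steroid receptor co-activators in the cytoplasm.

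Promoter windows are shown for Frmd8 and Rap1gap2, the 2 genes that rose in T3+T4 livers, and for Slc25a45, the gene whose start lies next to that of Frmd8. Each runs from 250 bases before to 50 bases after the transcription start, on the gene's own strand, 5′ to 3′, from RefSeq on GRCm38.p6. Capitals mark the thyroid hormone receptor half-site AGGTCA on either strand, and windows with no capitals hold none.

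Frmd8 (chr19:5875159-5875458, minus strand): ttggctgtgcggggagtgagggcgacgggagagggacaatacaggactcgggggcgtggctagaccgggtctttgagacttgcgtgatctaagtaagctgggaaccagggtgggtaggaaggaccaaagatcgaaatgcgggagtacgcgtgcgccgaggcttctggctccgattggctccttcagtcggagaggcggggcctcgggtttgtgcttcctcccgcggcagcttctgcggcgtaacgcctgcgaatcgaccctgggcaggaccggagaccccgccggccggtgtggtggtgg
Slc25a45 (chr19:5877572-5877871, plus strand): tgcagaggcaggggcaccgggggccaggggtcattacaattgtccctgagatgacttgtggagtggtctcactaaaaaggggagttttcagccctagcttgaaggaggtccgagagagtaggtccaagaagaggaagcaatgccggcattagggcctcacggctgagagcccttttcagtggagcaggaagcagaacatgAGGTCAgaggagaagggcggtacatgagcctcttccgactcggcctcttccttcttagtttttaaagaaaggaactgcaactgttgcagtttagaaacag
Rap1gap2 (chr11:74610866-74611165, minus strand, 1 of its 4 windows): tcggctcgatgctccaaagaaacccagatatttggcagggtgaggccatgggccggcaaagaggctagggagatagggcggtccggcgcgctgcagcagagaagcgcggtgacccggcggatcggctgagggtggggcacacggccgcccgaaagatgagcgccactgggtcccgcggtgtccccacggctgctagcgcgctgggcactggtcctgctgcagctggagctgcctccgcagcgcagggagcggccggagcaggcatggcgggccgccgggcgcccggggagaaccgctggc

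The Slc25a45 window holds 1 half-site, on the plus strand of the gene, with its first base at -50 from the start. Windows were found for 5 of the 6 genes, 8 in all, since Rap1gap2 has 4 starts. AGGTCA was not found in any of the 8 windows on either strand, while 5340 of all 32851 windows of the same length hold it (16.26%). The direct repeat with a spacer of 4 bases, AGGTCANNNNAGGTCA, which overlaps the half-site, was also found in none of them, and 5 of the 32851 windows hold it (0.02%). A match describes the letters of a window and is not a binding site, and the absence of a match covers these windows alone. In GC content the members' windows range from 52.3% to 74.7%, against a median of 52.7% over all windows.

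The summed level of 6 hepatocyte markers was high in every liver, from 1879.8 to 2895 CPM. Genes of pancreatic acinar cells or skeletal muscle were raised in 12 livers (a mean above 5 CPM over the list): 4 T3+T4, 3 T4, 2 T3, 2 vehicle and 1 control. Over the 7 muscle markers the summed level ranged from 1.10 to 87.4 CPM in T3+T4, 1.23 to 243 in T4, 3.96 to 405 in T3, 0.404 to 8.27 in vehicle and 0.811 to 1.86 in control livers, with Myh4 without a read in vehicle livers and both Ckm and Myh4 without one in control livers. Over the 7 acinar markers it ranged from 2.49 to 149.9 CPM in T3+T4, 0.881 to 10.7 in T4, 1.35 to 13.5 in T3, 2.58 to 172 in vehicle and 2.20 to 59.4 in control livers, with Pnlip without a read in T4, T3 and vehicle livers and Prss2 and Cpa1 without one in T3 livers. On the second principal component the T3 livers of animals 61 and 68 stood apart, at 66.7 and 27.6, against -35.9 to 19.7 for the other 29 livers. Xist and Y-linked genes went against the labelled sex of 4 animals, 1 in each of the T3+T4, T4, T3 and vehicle groups, and T3 animal 68 is one of them. By these genes the T4 livers were male except animals 69 and 71, and the T3 livers female except animal 62. T3+T4 livers were male except animals 78 and 85, and control livers female except animal 59. Vehicle animals 37 and 38 were female and 55, 67 and 2019 male. T4 and T3 livers thus differed in sex make-up as well as in hormone. Dio1 had 42 to 1504 counts and Dio2 4 to 47 counts in these livers, although all are labelled as lacking both genes; the table gives counts per whole gene, so where in the genes these reads fall was not tested and the deletions could not be checked. Pax8, at 2 to 28 counts in every liver, is too low in liver to check the genotype.

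Frmd8 (ENSMUSG00000024816, mm10 chr19:5849702-5875274, minus strand) gave the clearest difference outside the T4 and T3 livers: it rose in T3+T4 livers relative to vehicle and fell in vehicle relative to control livers. It lay between 43.7 and 75.1 CPM, median 58.7, in the 7 T3+T4 livers. In vehicle livers it had 21.7, 24.6, 20.8, 30.7 and 27.9 CPM, and in control livers 40.0, 36.6, 49.2, 51.1 and 43.8 CPM. Every T3+T4 liver and every control liver lay above every vehicle liver. In whole liver, fewer cells of a type and less RNA per cell cannot be told apart. The log2 fold change was 1.18 ± 0.14 for T3+T4 minus vehicle (SE, adjusted p = 1.03e-06, edgeR quasi-likelihood test) and -0.81 ± 0.14 for vehicle minus control (adjusted p = 0.000657). Frmd8 shares 388 exonic bases with the antisense gene Frmd8os, and whether the counting used strand is not given in the sources used here.

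In hormone-injected pups the T4 livers had 24.3 to 36.7 CPM of Frmd8, median 31.5, and the T3 livers 40.2 to 64.0 CPM, median 45.2. The highest T4 liver thus lay below the lowest T3 liver, and T4 livers overlapped with vehicle livers. By group means the order was T3+T4 at 56.9 ± 11.1 CPM, T3 at 47.4 ± 8.60, control at 44.1 ± 6.10, T4 at 31.2 ± 3.58 and vehicle at 25.1 ± 4.18 CPM (SD). Neighbours in this order differed by less than the sum of their SDs except control and T4. Set against vehicle, the log2 difference was 1.18 ± 0.14 with T3+T4, 0.31 ± 0.13 with T4 and 0.91 ± 0.14 with T3 (SE, 5 vehicle livers shared by the 3 values).

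Rap1gap2 (ENSMUSG00000038807, chr11:74383356-74610915, minus strand) also rose in T3+T4 livers, where it lay between 20.7 and 48.5 CPM, median 31.3. It had 14.6, 13.7, 14.6, 14.9 and 15.3 CPM in vehicle livers, and 17.4, 21, 21.7, 31 and 19.1 CPM in control livers. The 5 vehicle livers were closely alike and lay below every T3+T4 and every control liver. The change in T3+T4 minus vehicle was 1.14 ± 0.22 on the log2 scale (SE, adjusted p = 0.000937, edgeR), while that in vehicle minus control, -0.59 ± 0.24, did not pass (adjusted p = 0.119). A fit of the 2 compared groups alone called vehicle minus control (adjusted p = 0.0293).

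Rap1gap2 had 10.8 to 22.7 CPM in T4 livers, median 16.2, and 23.0 to 53.2 CPM in T3 livers, median 39.7. The lowest T3 liver stood just above the highest T4 liver, and T3 animals 61 and 68 were the 2 highest of all livers at 53.2 and 49.2 CPM. Group means were 38.2 ± 12.7 CPM in T3, 32.3 ± 9.18 in T3+T4, 22 ± 5.29 in control, 16.3 ± 4.49 in T4 and 14.6 ± 0.568 in vehicle livers (SD). Neighbours in that order differed by less than their summed SDs. Without T3 animals 61 and 68 the other 4 T3 livers averaged 31.7 ± 9.80 CPM.

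Fam83a (ENSMUSG00000051225, chr15:57985419-58011009, plus strand) moved the other way from Frmd8 and Rap1gap2: it fell in T3+T4 relative to vehicle livers and rose in vehicle relative to control livers. It lay between 1.44 and 5.86 CPM, median 2.82, in T3+T4 livers. It had 7.84, 5.86, 13.8, 4.42 and 11.5 CPM in vehicle livers, and 2.57, 2.20, 1.78, 3.65 and 1.33 CPM in control livers. Vehicle livers were all above control livers, and they overlapped with T3+T4 livers through 1 liver, that of T3+T4 animal 77. The log2 fold change was -1.50 ± 0.34 in T3+T4 minus vehicle (SE, adjusted p = 0.00361, edgeR) and 1.90 ± 0.40 in vehicle minus control (adjusted p = 0.00279). Levels in these 3 groups rest on 7 to 65 counts a library.

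In T4 livers Fam83a lay between 4.07 and 13.6 CPM, median 8.52, and in T3 livers between 1.00 and 3.78 CPM, median 2.90. The 2 lowest T3 values, 1.00 and 1.03 CPM, were those of animals 61 and 68. The group means fell into a high pair, T4 at 8.95 ± 2.97 CPM and vehicle at 8.67 ± 3.89, and a low trio, T3+T4 at 3.03 ± 1.58, T3 at 2.48 ± 1.18 and control at 2.31 ± 0.882 CPM (SD), with differences inside each below the SDs. Set against vehicle, the log2 difference was 0.05 ± 0.32 with T4 and -1.78 ± 0.37 with T3 (SE).

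Across the 6 genes, 2 rose (Rap1gap2, Frmd8), 1 fell (Fam83a) and 3 did not pass in T3+T4 minus vehicle, where 15.8% of all tested genes passed (7.33% higher, 8.45% lower). In vehicle minus control 1 rose (Fam83a), 1 fell (Frmd8) and 4 did not pass, with 9.63% of all tested genes passing (4.92% higher, 4.71% lower). These comparisons share the 5 vehicle livers. Groups did not overlap for 2 members in T3+T4 minus vehicle (8% of all tested genes) and for 3 in vehicle minus control (9.29%). In T3+T4 minus control 0 of the 6 passed with edgeR, as did 0% of all tested genes, and no member's groups were apart (0.727% of all tested genes). At an unadjusted p under 0.05 the count there was 2 members, Frmd8 (0.37 ± 0.13) and Rap1gap2 (0.55 ± 0.22), and 1226 genes, and DESeq2 called 50 genes, none of them a member. The members' median log2 fold change was 0.52 in T3+T4 minus vehicle, -0.24 in vehicle minus control and 0.36 in T3+T4 minus control, beside medians over all tested genes of -0.0028, 0.011 and 0.0045.

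**Figure D1:**
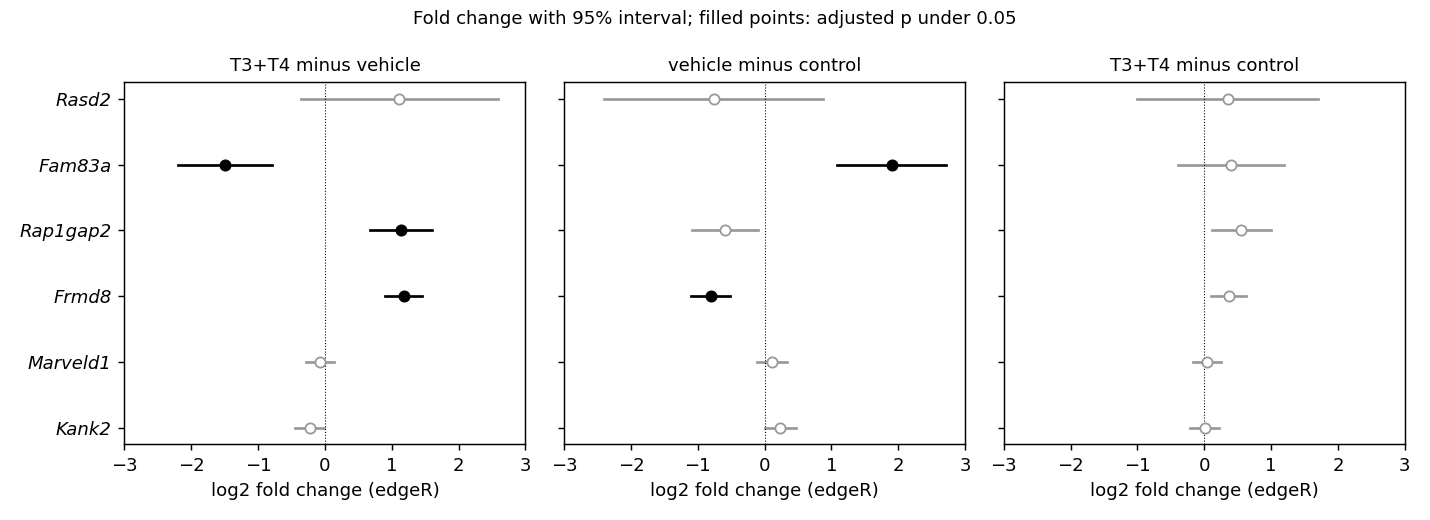
Log2 fold change (x axis, edgeR) with its 95% interval for each gene in T3+T4 minus vehicle, vehicle minus control and T3+T4 minus control. Filled points passed an adjusted p of 0.05: Frmd8 at 1.18 and Rap1gap2 at 1.14 to the right and Fam83a at -1.50 to the left in the first panel, Fam83a at 1.90 and Frmd8 at -0.81 in the second, and no gene in the third.

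Some of the members' calls were lost in fits on fewer livers. In animals 54 to 85, which leave 7 T3+T4, 2 vehicle and 1 control livers, T3+T4 minus vehicle was -1.55 ± 0.47 for Fam83a (SE, adjusted p = 0.0733, edgeR) and 1.14 ± 0.35 for Rap1gap2 (adjusted p = 0.0734), so the folds were about as large as in all livers and the errors wider. Without the 12 livers with raised acinar or muscle genes they were -1.10 ± 0.54 (adjusted p = 0.266) and 0.96 ± 0.33 (adjusted p = 0.108). In T3+T4 minus vehicle Frmd8 passed in each of those fits (adjusted p up to 0.00591). In vehicle minus control Fam83a was 2.72 ± 0.94 (adjusted p = 0.467) in animals 54 to 85 and 1.76 ± 0.53 (adjusted p = 0.0711) without the 12 livers, and Frmd8 was -0.78 ± 0.30 (adjusted p = 0.514) in animals 54 to 85. With 1 control liver, assumed to vary like the other groups, the fit of animals 54 to 85 says little about these changes. Leaving out any single liver kept all 5 calls of the members.

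Rasd2 (ENSMUSG00000034472, chr8:75213944-75224113, plus strand) was low in most livers and high in 2 T3 livers. It lay between 1.52 and 3.31 CPM, median 2.39, in T3+T4 livers and between 0.459 and 1.86 CPM, median 1.28, in T4 livers. The 6 T3 livers had 3.43, 44.8, 6.96, 2.42, 1.97 and 39.9 CPM, the values of 44.8 and 39.9 belonging to animals 61 and 68. In the 5 vehicle livers it had 1.64, 0.606, 0.424, 1.66 and 0.954 CPM, and in control livers 0.917, 2.37, 1.18, 1.62 and 3.05 CPM. Both high T3 livers held 268 and 232 counts, the other 4 held 13 to 36, and the vehicle livers 2 to 9. The lowest T3 liver was above the highest T4 and the highest vehicle liver, with a narrow gap.

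The mean in T3 livers, 16.6 ± 20.1 CPM (SD), was set by those 2 livers. Without them it was 3.70 ± 2.26 CPM (n = 4), next to 1.19 ± 0.548 CPM in T4 livers (n = 8), and the log2 difference of T4 minus T3 was -1.59 in place of -3.77. Without them T3 minus vehicle was 1.74 in place of 3.92, T3 minus control 0.98 in place of 3.16, and T3+T4 minus T3 was -0.62 in place of -2.80. In the comparisons without T3 livers Rasd2 did not pass: 1.12 with a 95% interval of -0.36 to 2.59 in T3+T4 minus vehicle (adjusted p = 0.312, edgeR) and -0.76 with an interval of -2.40 to 0.88 in vehicle minus control (adjusted p = 0.598). A fit of T3+T4 and vehicle livers alone, which does not take in the spread among T3 livers, called the first of them (adjusted p = 0.0282).

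**Figure D2:**
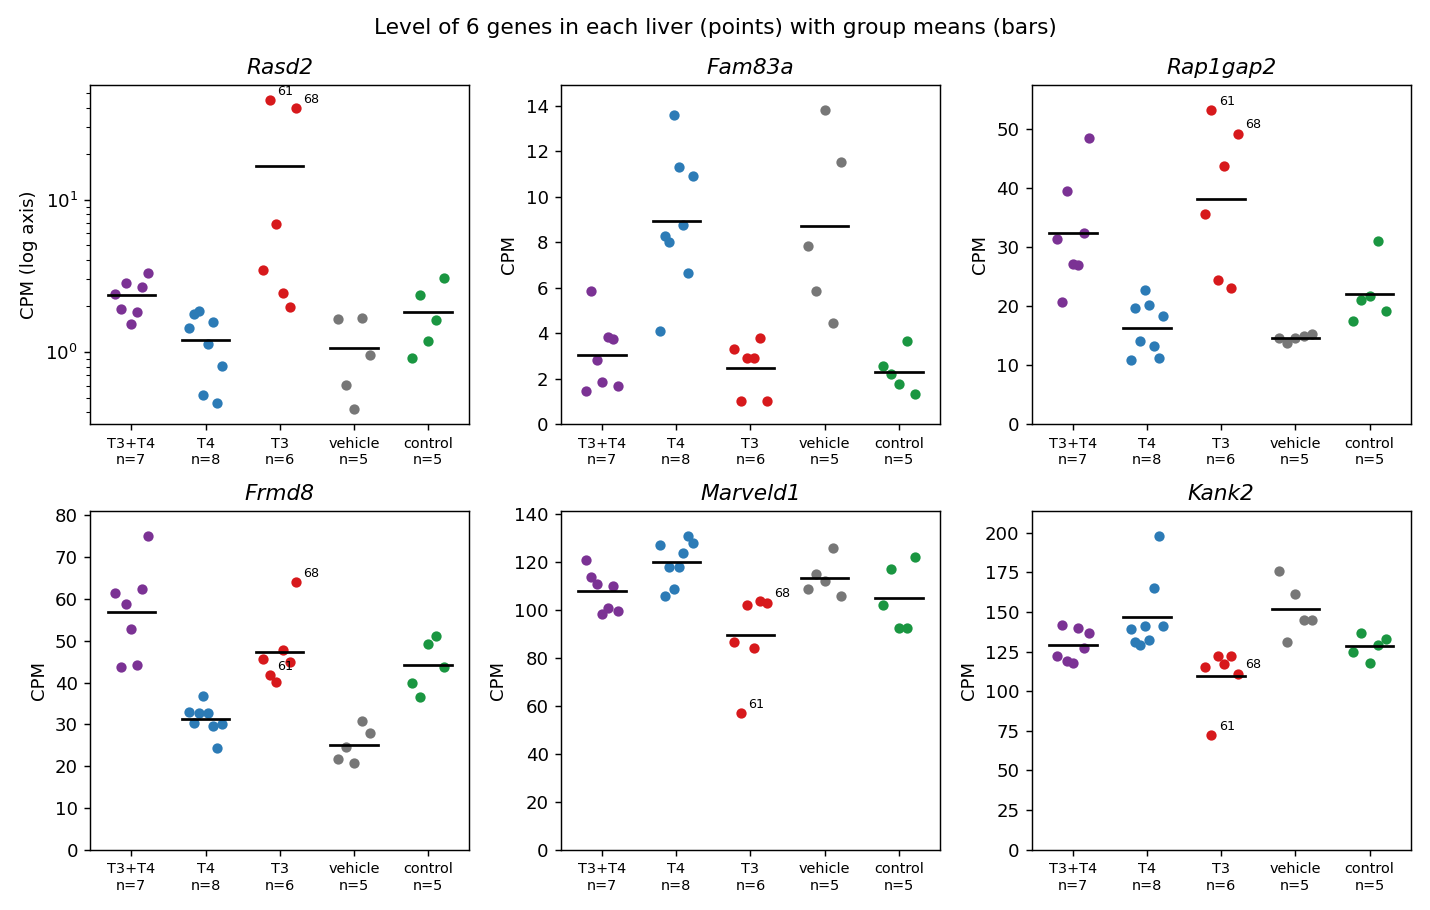
CPM of each gene (y axis, log scale for Rasd2 and linear from 0 for the others) in every liver by group; points are livers, bars are group means and numbers mark T3 animals 61 and 68. T4 livers lie apart from T3 livers in every panel by the choice of the genes, and the T3 mean of Rasd2, 16.6 CPM, lies above 4 of its 6 livers.

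Marveld1 (ENSMUSG00000044345, chr19:42147400-42151703, plus strand) and Kank2 (ENSMUSG00000032194, chr9:21766784-21798744, minus strand) were the most abundant members, with the smallest fold changes of the 6 in T3+T4 minus vehicle and in vehicle minus control. In RPKM, CPM divided by exonic length, the scale on which genes can be compared, Marveld1 averaged 20.8 to 27.9 and Kank2 20.95 to 28.9 over the 5 groups, against 4.95 to 11.2 for Frmd8, 2.04 to 5.33 for Rap1gap2, 0.727 to 2.82 for Fam83a and 0.333 to 5.22 for Rasd2.

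Marveld1 lay between 98.2 and 121 CPM, median 110.2, in T3+T4 livers, between 106 and 131 CPM, median 121, in T4 livers, and between 57.0 and 104 CPM, median 94.3, in T3 livers. It had 109, 115, 112, 126 and 106 CPM in vehicle livers, and 102, 117, 92.4, 92.7 and 122 CPM in control livers. T3+T4, vehicle and control livers overlapped, and T3 animal 61 held the lowest value of all. The log2 fold change was -0.07 (95% interval -0.28 to 0.13, adjusted p = 0.669, edgeR) in T3+T4 minus vehicle and 0.11 (-0.11 to 0.34, adjusted p = 0.562) in vehicle minus control.

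Kank2 lay between 118 and 142 CPM, median 127, in T3+T4 livers, between 129 and 198 CPM, median 139.97, in T4 livers, and between 72.4 and 122 CPM, median 116, in T3 livers. In vehicle livers the values were 176, 131, 161, 145 and 145 CPM, and in control livers 125, 137, 118, 129 and 133 CPM. The vehicle livers were mostly above the T3+T4 and control livers but overlapped with both, and T3 animal 61 was again the lowest of all. The log2 fold change was -0.23 ± 0.11 (SE, adjusted p = 0.144, edgeR) in T3+T4 minus vehicle and 0.24 ± 0.11 (adjusted p = 0.191) in vehicle minus control, neither past the threshold. Group means ran from 151 ± 17.2 CPM in vehicle and 147 ± 23.5 in T4 through 129 ± 10.1 in T3+T4 and 128 ± 7.39 in control to 109.7 ± 18.7 CPM in T3 livers (SD), and those of Marveld1 from 120.1 ± 9.15 in T4, 114 ± 7.84 in vehicle, 108 ± 8.60 in T3+T4 and 105 ± 13.7 in control to 89.4 ± 18.1 CPM in T3 livers. Neighbours in both orders differed by less than their summed SDs.

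In the T4 minus T3 difference that chose them, 3 members were lower in T4 livers, Rasd2 at -3.77 ± 0.57, Rap1gap2 at -1.22 ± 0.20 and Frmd8 at -0.60 ± 0.12, and 3 were higher, Fam83a at 1.84 ± 0.34, Marveld1 at 0.43 ± 0.10 and Kank2 at 0.42 ± 0.10 (log2, SE). The groups were apart for all 6, as the choice implies, beside 0.199% of all tested genes, and 0.551% of all tested genes passed an adjusted p of 0.05 in that comparison. Against vehicle, T3 livers were apart for all 6 members (3.61% of all tested genes) and T4 livers for none (0.815%), and since the choice used both hormone groups nothing is read from these counts. T3+T4 livers were apart from T4 livers for Frmd8 alone (1.32% of all tested genes) and from T3 livers for no member (0.235%).

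**Figure D3:**
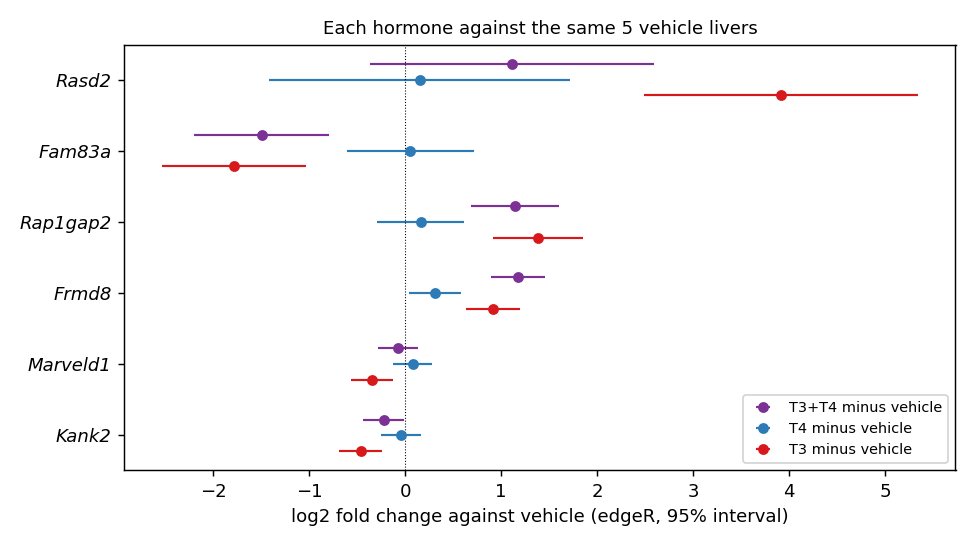
Log2 fold change against vehicle (x axis, edgeR, 95% interval) of each gene in T3+T4, T4 and T3 livers; the 5 vehicle livers are shared by all points. T4 points lie between -0.04 and 0.31 and T3 points between -1.78 and 3.92. For Fam83a, Rap1gap2 and Frmd8 the T3+T4 points lie nearer to the T3 than to the T4 points. For Rasd2, Marveld1 and Kank2 they lie nearer to the T4 points. For Rasd2 this rests on T3 animals 61 and 68. Without them T3+T4 minus T3 is -0.62, smaller in size than T3+T4 minus T4 at 0.97. T3+T4 minus T4 and minus T3 are -0.15 ± 0.09 and 0.27 ± 0.10 for Marveld1 (SE). For Kank2 they are -0.18 ± 0.09 and 0.24 ± 0.10. For both genes these are too close in size, given their SEs, to rank.

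Genes related to each member by family or function were counted by the same edgeR test, the members themselves left out. Over all tested genes 15.8% passed in T3+T4 minus vehicle and 9.63% in vehicle minus control. A list count near these shares, as for the Ras and Rap list, says nothing particular about the list. Of 27 Ras and Rap GTPases and their regulators, 1 rose and 3 fell in T3+T4 minus vehicle, 3 rose and 0 fell in vehicle minus control, and the list's median log2 fold change was 0.01 in both. Rap1gap, a paralogue of Rap1gap2, fell in T3+T4 livers, averaging 33.7 ± 6.02 CPM there and 49.9 ± 5.42 in vehicle livers (SD; -0.56 ± 0.12 log2, adjusted p = 0.00244), and rose in vehicle relative to control livers (34.02 ± 5.63 CPM in control; 0.55 ± 0.13, adjusted p = 0.00950). Its changes thus ran opposite in sign to those of Rap1gap2. Rapgef2, a Rap exchange factor, fell by 0.45 ± 0.11 (adjusted p = 0.00651) and rose by 0.48 ± 0.12 (adjusted p = 0.0124) in the same comparisons. Rasgrp2, another Rap1 exchange factor, fell by 0.32 ± 0.10 (adjusted p = 0.0296) and rose by 0.55 ± 0.11 (adjusted p = 0.00209). The fall of Rasgrp2 was lost when T3+T4 animal 79, 80 or 85 or vehicle animal 37 or 55 was left out (adjusted p up to 0.0850).

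Among 13 tested genes of the iRhom and ADAM17 sheddase and its EGF receptor ligands, 1 rose and 2 fell in T3+T4 minus vehicle, and 2 rose and 2 fell in vehicle minus control, with median log2 fold changes of -0.15 and 0.27. Adam17, the sheddase that Frmd8 stabilises, rose by 0.29 ± 0.08 in T3+T4 livers (92.5 ± 5.19 CPM, and 75.9 ± 6.82 in vehicle livers; adjusted p = 0.0103) and fell by 0.28 ± 0.08 in vehicle relative to control livers (92.4 ± 5.09 CPM in control; adjusted p = 0.0265). Timp3, its inhibitor, fell by 0.68 ± 0.19 in T3+T4 livers (adjusted p = 0.0144). Btc, an EGF receptor ligand, fell by 0.70 ± 0.23 (adjusted p = 0.0367). In vehicle relative to control livers Rhbdf1, which is iRhom1, rose by 0.71 ± 0.16 (adjusted p = 0.00619) and Adam10, a related sheddase, fell by 0.25 ± 0.08 (adjusted p = 0.0369). Single livers decided 3 of these calls: Adam17 in vehicle minus control was lost without control 49, control 50, vehicle 38 or vehicle 2019 (adjusted p up to 0.0882), and Btc and Adam10 were lost without any one of 7 livers each (adjusted p up to 0.0961 and 0.130). For Btc those were vehicle 37, 38 and 55 and T3+T4 72, 78, 84 and 85, and for Adam10 vehicle 37, 38, 55 and 2019 and control 47, 49 and 50.

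Of 14 MARVEL domain genes 0 rose and 4 fell in T3+T4 minus vehicle, and 2 rose and 0 fell in vehicle minus control, with medians of -0.25 and 0.20, while Marveld1 itself did not pass in either. Cmtm8 fell by 0.43 ± 0.07 in T3+T4 livers (69.9 ± 4.51 CPM, and 94.4 ± 10.5 in vehicle livers; adjusted p = 0.000114) and rose by 0.40 ± 0.08 in vehicle relative to control livers (adjusted p = 0.00113). Myadm fell by 0.34 ± 0.07 (adjusted p = 0.00211) and Cmtm4 by 0.27 ± 0.07 (adjusted p = 0.0131) in T3+T4 livers. Cmtm4 rose by 0.28 ± 0.08 in vehicle relative to control livers (adjusted p = 0.0245), a call lost without control 49, 50 or 59 or vehicle 38 or 67 (adjusted p up to 0.0750).

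Of 15 KANK genes and partners 0 rose and 2 fell in T3+T4 minus vehicle, and 1 rose and 0 fell in vehicle minus control, with medians of -0.15 and 0.05. Ppfibp1, a liprin found with KANK proteins at the cell edge, fell by 0.37 ± 0.11 (adjusted p = 0.0242), and Ncoa1, a nuclear receptor co-activator, fell by 0.26 ± 0.08 (adjusted p = 0.0278). Kank4 rose in vehicle livers, to 8.74 ± 1.71 CPM against 4.29 ± 0.144 in control livers (1.02 ± 0.23 log2, adjusted p = 0.00501). Ppfibp1 was lost without vehicle 38 or 67 or T3+T4 80 or 85 (adjusted p up to 0.0782), and Ncoa1 without vehicle 67 or 2019 (adjusted p up to 0.0840). Of 12 tested FAM83 and casein kinase 1 genes 0 passed in T3+T4 minus vehicle with edgeR (1 at an unadjusted p under 0.05, 0 with DESeq2) and 1 rose in vehicle minus control, with medians of 0.08 and -0.02. That gene, Fam83g, had 9.83 ± 2.91 CPM in vehicle and 4.92 ± 0.364 in control livers (0.99 ± 0.28 log2, adjusted p = 0.0212), and its call was lost without control 49 or vehicle 38 (adjusted p up to 0.0876).

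Known thyroid hormone targets gave a yardstick in the same livers. Of 16 such genes 9 rose and 1 fell in T3+T4 minus vehicle and 0 rose and 7 fell in vehicle minus control, with medians of 0.79 and -0.65. Dio1 had 186.6 ± 42.7 CPM in T3+T4, 12.7 ± 4.42 in vehicle and 169 ± 31.8 in control livers, which gave 3.88 ± 0.33 (adjusted p = 6.77e-09) and -3.74 ± 0.34 (adjusted p = 3.12e-08) on the log2 scale. Fasn, the fatty acid synthase, changed by 1.81 ± 0.20 (adjusted p = 5.03e-07) and -1.24 ± 0.20 (adjusted p = 0.000271). Bcl3 changed by 1.18 ± 0.21 (adjusted p = 0.000324) and -1.15 ± 0.22 (adjusted p = 0.00139), next to 1.18 and -0.81 for Frmd8.

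In T4 minus T3, 2 of the 16 target genes were lower in T4 livers and 0 higher, Dio1 at 34.3 ± 16.7 CPM in T4 and 135.0 ± 53.2 in T3 livers (-1.97 ± 0.25 log2, adjusted p = 0.000241, edgeR) and Slc16a10, a transporter of aromatic amino acids and thyroid hormone, at 95.1 ± 47.4 and 266.6 ± 222 CPM (-1.49 ± 0.30, adjusted p = 0.0142). The call of Slc16a10 was lost without T3 animal 61 (adjusted p = 0.0980). In the 5 other lists 0 genes passed with edgeR. At an unadjusted p under 0.05 the counts were 3 for Ras and Rap, 0 for FAM83 and casein kinase 1, 3 for the sheddase list, 4 for MARVEL and 3 for KANK genes, and DESeq2 called 2, 0, 0, 0 and 0.

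The gene whose level followed Frmd8 most closely over the 31 livers was its neighbour Slc25a45, a mitochondrial carrier of the SLC25 family, with a Pearson r of 0.92 (log2 CPM). Their starts lie 2.5 kb apart on opposite strands and point away from each other. Slc25a45 averaged 64.1 ± 14.7 CPM in T3+T4, 30.6 ± 5.46 in T4, 52.5 ± 14.2 in T3, 19.3 ± 4.49 in vehicle and 49.0 ± 9.14 in control livers (SD), the same order of groups as Frmd8. It rose by 1.73 ± 0.19 in T3+T4 minus vehicle (adjusted p = 7.93e-07, edgeR) and fell by 1.34 ± 0.21 in vehicle minus control (adjusted p = 0.000108). Next came Dio1 and the sulfotransferase Sult5a1, both at r = 0.89. Within groups, taking each liver's deviation from its group mean, r was 0.63 for Slc25a45, 0.50 for Dio1 and 0.57 for Sult5a1. All 31 points come from the same libraries, so depth and scaling are shared by both genes of each pair.

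Of the 7 tested genes that start within 100 kb of Frmd8, 3 rose and 1 fell in T3+T4 minus vehicle and 0 rose and 1 fell in vehicle minus control. Over all tested genes the shares passing were 15.8% and 9.63%. Beside Slc25a45, Dpf2, a chromatin remodelling subunit, rose by 0.27 ± 0.08 (adjusted p = 0.0139) and Pola2, a DNA polymerase alpha subunit, by 0.46 ± 0.15 (adjusted p = 0.0343), while the nuclear RNA Neat1 fell by 0.43 ± 0.13 (adjusted p = 0.0286). The call of Dpf2 was lost without vehicle 55 (adjusted p = 0.0575). Pola2 was lost without vehicle 37, 38, 67 or 2019 or T3+T4 78, 80 or 84 (adjusted p up to 0.0723), and Neat1 without vehicle 55, 67 or 2019 or T3+T4 72, 77, 80 or 85 (adjusted p up to 0.0913).

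**Figure D4:**
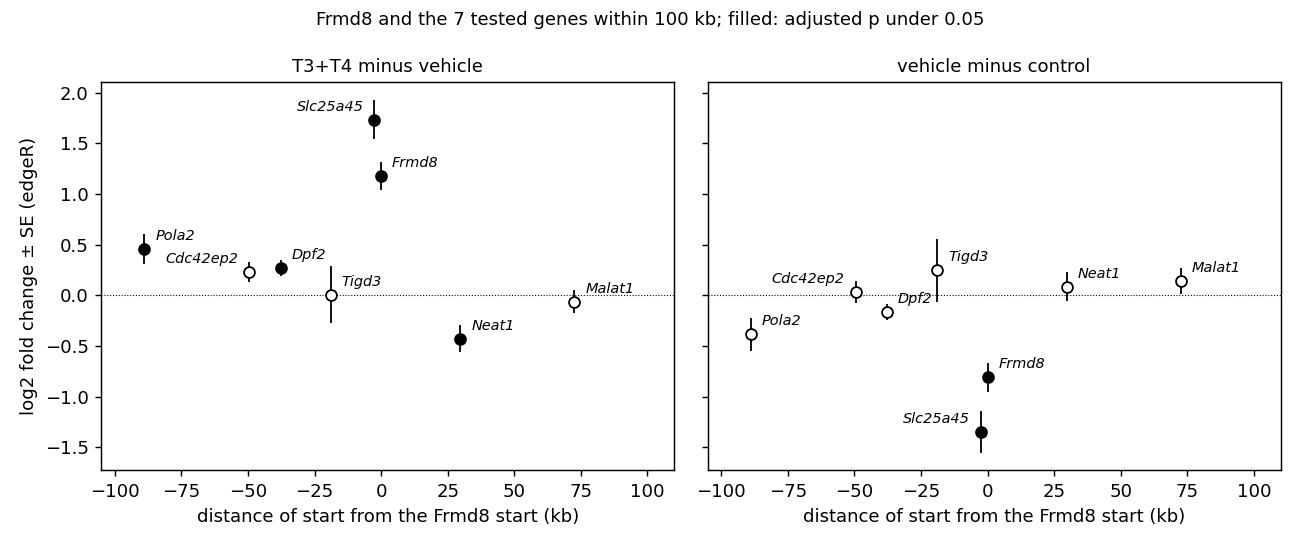
Log2 fold change ± SE (y axis, edgeR) of Frmd8 and the 7 tested genes within 100 kb against the distance of their start from that of Frmd8 (x axis, kb, negative upstream); filled points passed an adjusted p of 0.05. Frmd8 and Slc25a45, 2.5 kb apart, stand out above in T3+T4 minus vehicle (1.18 and 1.73) and below in vehicle minus control (-0.81 and -1.34).

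Rasd2 was followed most closely by Acacb, the mitochondrial acetyl-CoA carboxylase (r = 0.83), Gpcpd1, a glycerophosphocholine phosphodiesterase (r = 0.80), and Sesn1, a sestrin (r = 0.78). T3 animals 61 and 68 were the 2 highest livers for each of these genes. Acacb stood at 162 and 81.8 CPM there against 5.09 to 29.7 in the other 29 livers, Gpcpd1 at 545 and 359 against 56.9 to 167, and Sesn1 at 92.4 and 88.7 against 40.4 to 64.9. Without the 2 livers r fell to 0.57, 0.47 and 0.45, so the closeness rested largely on them. Neither liver was among those with raised acinar or muscle genes. Their summed levels of 6 endothelial markers, 923.8 and 924.03 CPM, were the highest of the 31 livers, next to 664.7 to 905.97 CPM in the others. Animal 61 also had the lowest summed stellate cell markers, 681 CPM, and erythroid markers, 229 CPM. The part of these marker levels in the values of Rasd2 was not tested.

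**Figure D5:**
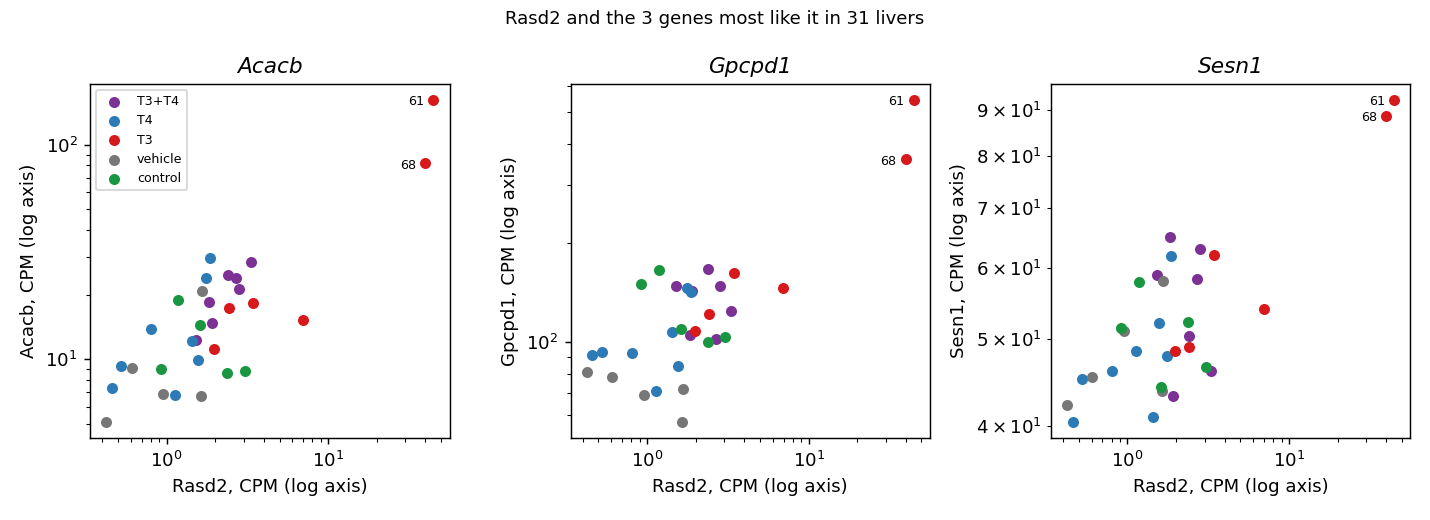
CPM of Acacb, Gpcpd1 and Sesn1 (y axes, log scale) against CPM of Rasd2 (x axes, log scale) in 31 livers, coloured by group. T3 animals 61 and 68 sit alone at the top right of each panel, at 44.8 and 39.9 CPM of Rasd2.

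The genes most like Rap1gap2 were Celf2, an RNA-binding protein (r = 0.86), Lrrc8b, a subunit of volume-regulated anion channels (r = 0.86), and Sult5a1 (r = 0.83), and these values stayed at 0.86, 0.85 and 0.81 without the 2 livers farthest from the median of Rap1gap2. Fam83a was followed by Prune (r = 0.81), Lamb3, a laminin chain (r = 0.81), and Cul7, a ubiquitin ligase scaffold (r = 0.79), with 0.80, 0.78 and 0.79 without the 2 farthest livers. Kank2 went with Pvrl1, which is nectin-1 (r = 0.87), the glycogen-binding Stbd1 (r = 0.86) and Bloc1s5 (r = 0.85), with 0.70, 0.73 and 0.73 without the 2 farthest. Marveld1 went with Galm, the galactose mutarotase (r = 0.80), Caprin2 (r = 0.78) and Xkr8, a phospholipid scramblase (r = 0.78), and these fell to 0.52, 0.48 and 0.54 without T3 animals 61 and 64. Each r is a description over 31 livers, picked as the highest of 13516 candidate genes.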

How the data were processed

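Total RNA of 31 livers was sequenced from stranded Illumina mRNA libraries, per the labels' protocols. The authors deposited 1 table of whole-number counts per gene, with no value below 1 and 50.1% of values equal to 1. Names in the submitters' processing notes include bcl2fastq, Trimmomatic, BWA 0.7.10 and DESeq, and a build, GRCh38, that goes against the mm10 of the column names; the counter and its use of strand are not given in the sources used here. Gene positions were taken from GENCODE M21 (42462 of 43629 IDs matched, 97.3%), promoter windows from RefSeq.

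Counts were tested as deposited with edgeR 4.0.16 in R 4.3.3 (TMM scaling, filterByExpr, 1 mean per group over all 31 livers, quasi-likelihood test, Benjamini-Hochberg adjustment over the 17057 genes tested, threshold 0.05). Levels are CPM of the TMM-adjusted library total, from the counts as deposited, and marker sums leave out the 1 in every value; correlations used log2 CPM with a prior count of 1. DESeq2 1.42.0 and the other settings were alternatives. Genes listed besides the members follow fixed lists: up to 3 called genes per list and comparison, and the 3 genes closest to each member by correlation. The members, the lists and the alternatives were chosen with earlier results of these data known. Livers of one group differed far beyond sampling noise (chi-square per degree of freedom 2.79 to 23.9), so none was counted as a repeat. On simulated counts for T3+T4 minus vehicle (16904 genes), edgeR recovered 76 of 100 genes changed 2-fold and 96 of 100 changed 4-fold. One result is not reported here.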

Additional observations from a re-analysis of the deposited data

Results flagged for a closer look

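Of 30 sets of values looked at (6 genes in 5 groups), 2 held a liver far from the rest of its group by Dixon's criterion, which flags about 1 in 20 groups by chance. Frmd8 in T3 animal 68 stood at 64.0 CPM, above the next T3 liver at 47.9 CPM. Kank2 in T3 animal 61 stood at 72.4 CPM, below the next T3 liver at 111 CPM. These are the 2 T3 livers that also held the highest Rasd2, and T3 animal 68 is the one whose sex genes went against its label; the part of either fact in the flagged values was not tested.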

How the results depend on the processing

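No paired analysis was possible, since each liver belongs to 1 group and the labels name no litter. Litter was therefore not modelled. All 31 livers counted, T3+T4 minus vehicle called 2692 genes (1251 higher, 1441 lower; 1670 higher and 1105 lower with the library total as the only scaling), against 794 with animals 54 to 85 and 685 without the 12 livers with raised acinar or muscle genes, both with fewer livers. Vehicle minus control called 1642 genes, against 3 and 689 in those fits, and 935 to 1604 with 1 liver left out (966 without control 49, 935 without control 50, 1011 without vehicle 38). T3+T4 minus control called 0 with edgeR (1226 at an unadjusted p under 0.05), 50 with DESeq2, 2 with a sex covariate, and 0 to 4 with 1 liver left out, without control 47 (1) or T3+T4 72 (4) or 78 (1). T4 minus T3 called 94 genes, 234 with DESeq2, 8 in a fit of the 2 groups, 7 with a sex covariate, 21 with a depth covariate, 43 with animals 54 to 85, 9 without T3 animals 61 and 68, 38 without animals of mismatched sex, and 0 without the 12 livers (1410 at an unadjusted p under 0.05); with 1 liver left out it called 27 to 342 (42 without T4 69, 41 without T4 70, 41 without T3 61, 342 without T3 62, 27 without T3 68). The cause was not tested. With a depth covariate T3+T4 minus vehicle called 1805 genes in place of 2692, and vehicle minus control 1846 in place of 1642. Subtracting 1 from every count changed no call or sign of a member and left 2649, 1628, 0 and 90 genes called in the 4 comparisons above. Uncalled members changed sign in a few fits: Marveld1 to 0.0020 in T3+T4 minus vehicle with no filter, and with animals 54 to 85 Marveld1 to -0.053 in vehicle minus control and, in T3+T4 minus control, Rasd2 to -0.38, Marveld1 to -0.18 and Kank2 to -0.051. With 1 liver left out, T3+T4 minus control ran from -0.0044 to 0.10 for Marveld1 and from -0.018 to 0.035 for Kank2. Of 39 calls of other genes that were followed through the settings, 30 were lost with animals 54 to 85, 22 without the 12 livers, 10 with no filter, 8 without animals of mismatched sex, 7 with a depth covariate and 3 with a sex covariate or with the library total alone; 0 changed sign. The 2 alternatives of leaving out T3 animals 61 and 68 and leaving out animals of mismatched sex were added after seeing the data. At 2 to 36 counts in most livers, depth limits Rasd2 more than the other members.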

Other observations

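Genes that start within 100 kb of the other members were also looked at, and they were not chosen for their values. Over all tested genes 15.8% passed in T3+T4 minus vehicle and 9.63% in vehicle minus control. Dock6, 53.9 kb upstream of Kank2, fell by 0.38 ± 0.12 on the log2 scale in T3+T4 minus vehicle (adjusted p = 0.0357, edgeR) and rose by 0.43 ± 0.13 in vehicle minus control (adjusted p = 0.0418), while Kank2 did not pass in either. Both calls of Dock6 were lost without any one of 7 livers (adjusted p up to 0.0898 and 0.122). In T3+T4 minus vehicle those were vehicle 37, 55 and 67 and T3+T4 77, 79, 84 and 85, and in vehicle minus control vehicle 37, 55, 67 and 2019 and control 47, 49 and 50. Of the 2 tested around Rap1gap2, Cluh, which binds mRNAs of mitochondrial proteins, fell by 0.28 ± 0.06 in T3+T4 minus vehicle (adjusted p = 0.00309), opposite in sign to Rap1gap2. Of the 4 tested around Fam83a, 0 passed with edgeR or DESeq2 in either comparison, with 1 at an unadjusted p under 0.05 in T3+T4 minus vehicle and 2 in vehicle minus control. Of the 5 tested around Marveld1, 0 passed with either tool, with 0 and 1 at an unadjusted p under 0.05 in those comparisons. No tested gene starts within 100 kb of Rasd2.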
